A study of Mus musculus with 4 samples.

Results

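The transcripts of 9 genes for the synaptonemal complex and its HORMA-domain partners were followed through mouse oocyte growth. The genes are Sycp1, Sycp2, Sycp3, Syce1, Syce2, Syce3, Tex12, Hormad1 and Hormad2, and they were taken by name as a functional group. Each of them has 1 row among the 25587 genes listed in the deposited expression table.

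The synaptonemal complex is the protein ladder that holds paired homologous chromosomes together in prophase of the first meiotic division. SYCP2 and SYCP3 build the lateral elements along the chromosome axes, SYCP1 forms the transverse filaments that span the gap, and SYCE1, SYCE2, SYCE3 and TEX12 make up the central element. HORMAD1 and HORMAD2 sit on chromosome axes that are not yet synapsed and are removed as synapsis proceeds. In the mouse ovary synapsis takes place before birth, and oocytes stop at the end of prophase with the complex taken apart, so the libraries described here come from cells that have already passed the stage at which these proteins act.

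Oocytes of wild-type C57BL/6Babr mice were collected at an age the labels give only as a range, from 5 to 20 days after birth for all stages. The study itself lists an older age for each later stage, so stage and age cannot be told apart. Non-growing oocytes (NGO), growing oocytes of an earlier and a later stage in the study's order (GO1 and GO2, which the labels both call growing) and fully grown oocytes (FGO, labelled as GV oocytes, in which the germinal vesicle is still intact) gave 1 library each, from cells pooled over animals. No mutant and no treated group was included. All 4 libraries were made from total RNA after depletion of ribosomal RNA. NGO and FGO were turned into libraries by the dUTP protocol, whereas the ScriptSeq v2 kit was used for GO1 and GO2. Stage and kit cannot be told apart across kits, so changes are given only within a kit: NGO to FGO, and GO1 to GO2.

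The deposited unit is RPKM, a read count divided by exon length and library total, and whole-number counts were recovered from it. The recovered counts summed to 60016331 in NGO, 69620255 in GO1, 129133487 in GO2 and 67359575 in FGO. There is no second library of any stage, so no test between stages was possible, and all intervals given are 95 % intervals for counting error only. They treat each count as independent, although reads were sequenced as pairs and the recovered counts exceed the mapped reads the study lists for each library. On average, 1 listed mapped read thus gave more than 1 count, so the intervals are too narrow, by an amount not known for each gene. In such pooled material, fewer cells with a transcript and less of it per cell cannot be told apart. All 11 oocyte markers, led by Zp2, Zp3 and Gdf9, were at or above an RPKM of 1 in every library, with a summed RPKM of 4170 to 6612. Markers of other ovarian cells were far lower. The summed RPKM of the 9 granulosa markers was 6.28 in NGO, 12.0 in GO1, 16.5 in GO2 and 19.5 in FGO, most of it Nr5a2, Cyp19a1 and Kitl. Of the more specific granulosa markers, Foxl2 did not exceed 0.0753. From NGO to FGO, Foxl2 went from 0.0753 to 0.0265 and Amhr2 from 0.397 to 0.225. Amh went from 0.2498 to 0.412, Inha from 0.638 to 1.54, Hsd17b1 from 0.135 to 0.655 and Fshr from 0.135 to 0.302. The 7 stroma and theca markers added up to 5.55 in NGO, from Col1a1, Col3a1 and Col1a2, and to 0.304 to 0.471 in the other libraries. Blood and endothelial markers (6 of 7 listed) added up to 2.97 to 9.71, most of it Pecam1. From NGO to FGO Pecam1 went from 1.74 to 9.70, whereas Cdh5, the other endothelial marker, went from 0.0408 to 0. Ptprc did not exceed 0.0192, Hba-a1 was at 0.902 and Hbb-b1 at 0.262 in NGO, and Hba-a2 was listed at 0 in all libraries. The 4 surface epithelium markers, mostly Krt8 and Upk3b, added up to 1.92 to 2.51. The part of these markers in the levels below was not tested.

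Upstream sequence is shown for 6 of the genes, to set genes that fell 4-fold or more beside genes that stayed under 4-fold. The sequences are the 250 bases before the RefSeq start site, read 5′ to 3′ on the gene's strand in GRCm38.p6. They lie at chr10:88459337-88459586 (+) for Sycp3, chr3:102936101-102936350 (-) for Sycp1, chr3:95559427-95559676 (+) for Hormad1, chr9:50561269-50561518 (-) for Tex12, chr2:178407659-178407908 (-) for Sycp2 and chr8:84871861-84872110 (+) for Syce2. Capitals mark CACGTG, the E-box recognised by MAX with its partners, and GCGGGA, the core of the E2F site, on either strand.
Sycp3: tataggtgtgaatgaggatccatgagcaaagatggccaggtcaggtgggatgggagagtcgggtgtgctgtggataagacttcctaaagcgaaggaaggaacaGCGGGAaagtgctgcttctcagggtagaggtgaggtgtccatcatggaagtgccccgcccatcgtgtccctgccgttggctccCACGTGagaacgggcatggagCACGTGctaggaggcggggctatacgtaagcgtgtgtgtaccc
Sycp1: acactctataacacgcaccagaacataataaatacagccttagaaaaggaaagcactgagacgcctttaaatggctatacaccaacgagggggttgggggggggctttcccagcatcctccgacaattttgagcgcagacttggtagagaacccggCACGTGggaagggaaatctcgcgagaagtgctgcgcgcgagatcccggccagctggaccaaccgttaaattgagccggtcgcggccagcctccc
Hormad1: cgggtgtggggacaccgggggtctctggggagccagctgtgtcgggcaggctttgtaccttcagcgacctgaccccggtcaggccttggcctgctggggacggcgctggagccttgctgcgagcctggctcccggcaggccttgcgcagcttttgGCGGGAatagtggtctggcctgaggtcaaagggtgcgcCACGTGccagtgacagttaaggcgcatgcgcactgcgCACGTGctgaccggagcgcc
Tex12: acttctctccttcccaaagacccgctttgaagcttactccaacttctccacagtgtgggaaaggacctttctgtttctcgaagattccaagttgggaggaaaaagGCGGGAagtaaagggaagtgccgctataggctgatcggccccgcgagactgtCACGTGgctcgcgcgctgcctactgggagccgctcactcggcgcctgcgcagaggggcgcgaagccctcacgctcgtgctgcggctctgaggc
Sycp2: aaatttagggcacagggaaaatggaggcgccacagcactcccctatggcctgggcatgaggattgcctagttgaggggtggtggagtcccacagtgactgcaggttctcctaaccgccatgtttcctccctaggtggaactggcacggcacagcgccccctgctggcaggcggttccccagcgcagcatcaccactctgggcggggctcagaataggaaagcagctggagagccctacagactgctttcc
Syce2: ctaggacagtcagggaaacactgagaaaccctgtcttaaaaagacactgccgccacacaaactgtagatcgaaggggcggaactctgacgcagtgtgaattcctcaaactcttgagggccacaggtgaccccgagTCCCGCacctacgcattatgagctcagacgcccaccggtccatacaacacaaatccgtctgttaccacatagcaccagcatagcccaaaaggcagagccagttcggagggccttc
From NGO to FGO Sycp3, Sycp1 and Hormad1 passed 4-fold lower, whereas Tex12, Sycp2 and Syce2 did not. In windows of 250 bases before to 50 bases after the start, CACGTG was found at 4 of the 9 genes (Sycp1, Sycp3, Tex12 and Hormad1), beside 7.09 % of all 27025 promoters of the same length. GCGGGA was found at 5 of 9 (Sycp1, Sycp3, Syce2, Tex12 and Hormad1), beside 19.81 % of promoters, and in Sycp1 it lay just after the start and is therefore not in the printed stretch. Tex12 holds CACGTG and stayed under 4-fold, and Syce1 and Syce3 passed 4-fold lower and hold no CACGTG. Other motifs searched on both strands were TATAAA (1 of 9, beside 14.14 %) and TAATTG, the NOBOX site (1 of 9, beside 8.13 %), both at Syce3, and the E-boxes CAGCTG (4 of 9, beside 16.23 %) and CACCTG (3 of 9, beside 20.03 %). The windows of the 9 genes held 5 to 26 CpG dinucleotides, the fewest at Syce3 and the most at Tex12, with a median of 16 beside a median of 7 over all promoters (quartiles 3 and 20). These matches describe letters in the windows and are no evidence of binding.

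Within each kit, the summed level of the set was lower in the later library, and 1 gene, Syce2, held a larger share of it. The summed RPKM of the 9 genes was 194 in NGO, 151 in GO1, 123 in GO2 and 114 in FGO. The genes held 0.0693 % of the gene counts in NGO and in GO1, 0.0599 % in GO2 and 0.0472 % in FGO. The sum follows its most abundant genes: from NGO to FGO Sycp3 went from 66.3 to 9.48 and Syce2 from 77.3 to 78.4. With at least 3 counts as the limit of detection, 9 of 9 genes were detected in NGO, GO1 and GO2 and 8 of 9 in FGO. An RPKM of 1 or more was reached by 9 genes in NGO, 7 in GO1, 7 in GO2 and 6 in FGO. The plot of levels by library shows the genes one by one.

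**Figure D1:**
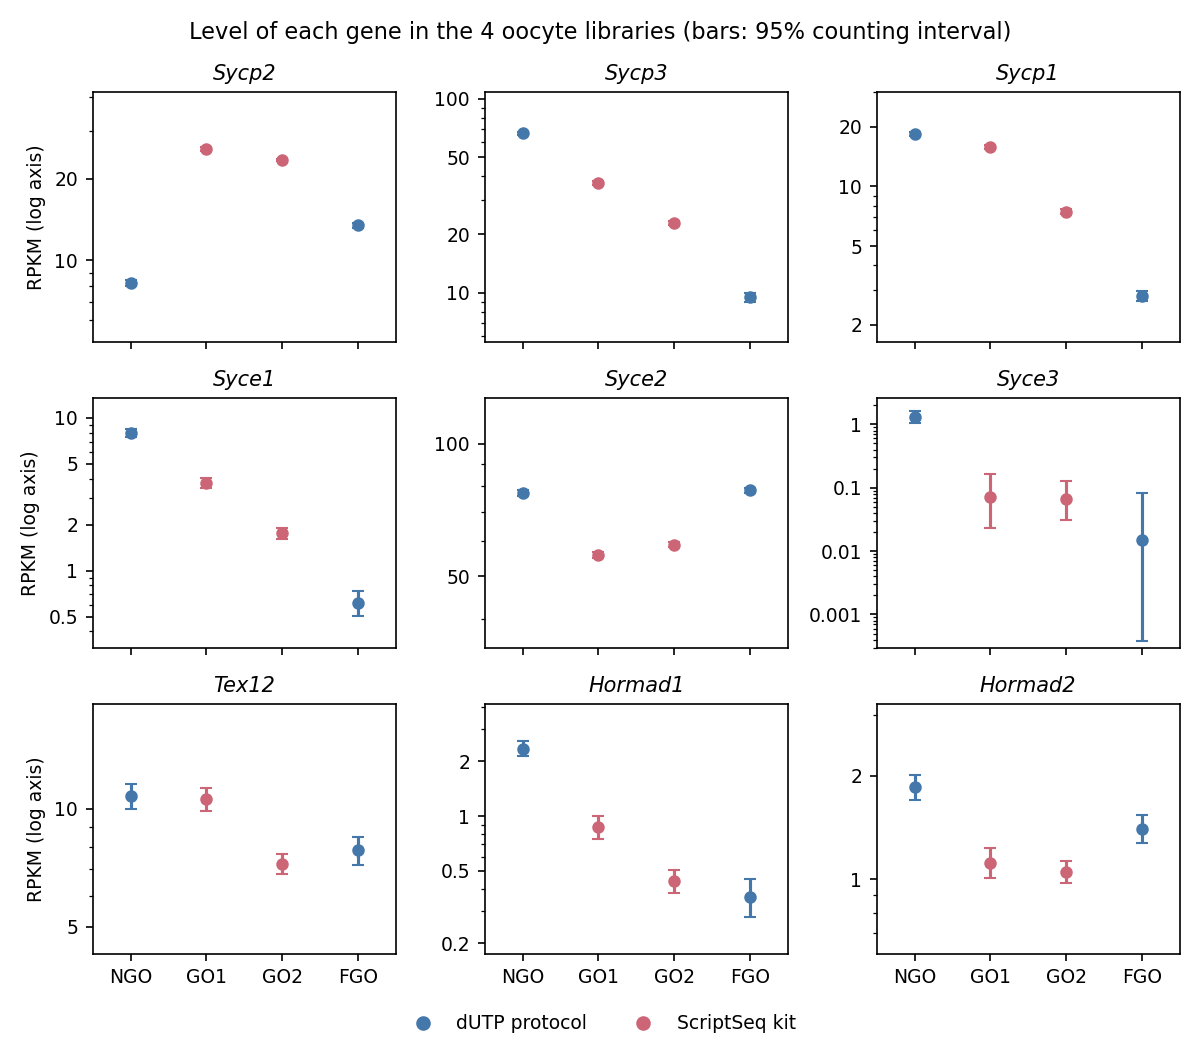
RPKM of each of the 9 genes (log axes that differ between panels) in the NGO, GO1, GO2 and FGO libraries, coloured by library kit, with 95 % Poisson intervals of the count. Sycp3, Sycp1, Syce1, Syce3 and Hormad1 are highest in NGO and lowest in FGO, while Syce2 stays between 55.9 and 78.4 and Sycp2 is lowest in NGO.

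The lateral element genes went in different directions. Sycp3 (chr10:88459569-88473236, + strand) encodes the fibre-forming core protein of the axis. Its RPKM was 66.3 in NGO, 36.7 in GO1, 22.9 in GO2 and 9.48 in FGO, from 9274, 5883, 6978 and 1433 counts. The order NGO, GO1, GO2, FGO was free of overlapping intervals. Its steps from NGO to GO1 and from GO2 to FGO cross kits, as they do for every gene below. In NGO Sycp3 lay at percentile 98.5 of all listed genes and in FGO at 85.3. From NGO to FGO it fell by 2.75 on the log2 scale (interval -2.83 to -2.67), and only 2.75 % of the genes tested had a lower change. From GO1 to GO2 the log2 change was -0.72 (-0.77 to -0.67), below the middle 50 % of genes, which lay between -0.27 and 0.33.

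Chpt1, a choline phosphotransferase gene on the opposite strand, spans Sycp3 whole and shares 660 of its 1264 exon bases in GENCODE. The study describes its libraries as strand-specific, but the strand setting of the deposited counts is not given in the sources used here. Without strand, reads in the shared bases cannot be assigned to either gene. Chpt1 itself had 572 counts in NGO, 617 in GO1, 914 in GO2 and 326 in FGO over its 8324 exon bases, so its RPKM did not exceed 0.621. Sycp3 had 9274 counts in NGO and 1433 in FGO. The part of Chpt1 reads in the Sycp3 counts was not tested.

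Sycp2 (chr2:178345293-178407685, - strand), whose product recruits SYCP3 to the lateral element, was the 1 gene of the 9 that was lowest in NGO. Its RPKM was 8.23 in NGO, 25.8 in GO1, 23.4 in GO2 and 13.4 in FGO, from 5428 to 33720 counts, and none of the neighbouring levels had overlapping intervals. The 2 ScriptSeq libraries were both above the 2 dUTP libraries, so an order over all stages cannot be told apart from the kit. Within pairs, the log2 change was 0.76 from NGO to FGO (0.71 to 0.81), a ratio between 1.64 and 1.75 and under the 4-fold required for a call, and -0.17 from GO1 to GO2 (-0.20 to -0.15). Sycp2 had 0.124 times the RPKM of Sycp3 in NGO, 0.702 times in GO1, 1.02 times in GO2 and 1.42 times in FGO. The 2 partners of the lateral element thus changed rank: Sycp3 was the higher in NGO and GO1, the interval of the ratio included 1 in GO2 (0.998 to 1.05), and Sycp2 was the higher in FGO.

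Sycp1 (chr3:102818499-102936100, - strand), the transverse filament gene, followed Sycp3. Its RPKM was 18.3 in NGO, 15.9 in GO1, 7.46 in GO2 and 2.79 in FGO, from 6965, 6928, 6190 and 1148 counts, again with no overlap between neighbours. From NGO to FGO it fell by 2.66 on the log2 scale (-2.75 to -2.57), to between 0.149 and 0.168 of the NGO level. From GO1 to GO2 the log2 change of -1.12 (-1.17 to -1.07) was the lowest of the 9 genes and at percentile 2.13 of genes tested, though short of 4-fold. The ratio of Sycp3 to Sycp1 stayed between 2.31 and 3.62 in the 4 libraries, while each of them varied more than 6-fold from NGO to FGO: Sycp1 by 6.32-fold and Sycp3 by 6.74-fold.

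The central element genes differed widely among themselves. Syce2 and Tex12 encode the partners that assemble together into fibres along the middle of the complex. Syce2 (chr8:84872111-84888221, + strand) had the highest level of the 9 in every library, with an RPKM of 77.3 in NGO, 55.9 in GO1, 59.0 in GO2 and 78.4 in FGO, at percentile 98.2 to 98.9 of listed genes. Intervals of the NGO and FGO levels overlapped, and the ScriptSeq libraries were both lower than the dUTP libraries. The log2 change was 0.07 from NGO to FGO (0.04 to 0.10) and 0.04 from GO1 to GO2 (0.02 to 0.07), within the middle 50 % of genes in both pairs. The first turned to -0.03 when libraries were scaled by their summed gene counts, and was 0.02 with log2(RPKM + 0.01). The 3′ end of Gcdh, an enzyme gene of lysine breakdown on the opposite strand, lies in the span of Syce2 for 1829 bases without sharing exon bases in GENCODE, and had an RPKM of 3.54 to 6.06.

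Tex12 (chr9:50557148-50561268, - strand) had an RPKM of 10.8 in NGO, 10.6 in GO1, 7.24 in GO2 and 7.83 in FGO, from 736, 828, 1079 and 578 counts. NGO and GO1 overlapped, as did FGO and GO2. Each overlap joins a dUTP library to a ScriptSeq library, so no order over all stages is drawn from it. Its log2 change was -0.41 from NGO to FGO (-0.57 to -0.25) and -0.58 from GO1 to GO2 (-0.71 to -0.45), both under 4-fold. These counts rest on an exon length of 617 bases, the smallest that gives whole counts, whereas the GENCODE exon union of Tex12 is 1016 bases, and a length of 1234 bases would double the counts and narrow the intervals. Per kilobase, Syce2 had 7.17 times the level of Tex12 in NGO, 5.28 times in GO1, 8.14 times in GO2 and 10.01 times in FGO.

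Syce1 and Syce3, which join the transverse filaments to the central element, had the lowest log2 changes of the 9 genes from NGO to FGO in scaled counts, though not with log2(RPKM + 1), where Sycp3 was lowest. Syce1 (chr7:140777229-140787854, - strand) had an RPKM of 7.98 in NGO, 3.73 in GO1, 1.75 in GO2 and 0.612 in FGO, from 1290, 691, 618 and 107 counts, and none of these intervals overlapped. From NGO to FGO it fell by 3.64 on the log2 scale (-3.95 to -3.37), or 12.4-fold, at percentile 1.31 of genes tested. From GO1 to GO2 its log2 change was -1.12 (-1.28 to -0.96). Syce3 (chr15:89390166-89410503, - strand) was the lowest of the 9 genes in every library, with an RPKM of 1.31 in NGO, 0.0712 in GO1, 0.0673 in GO2 and 0.0151 in FGO. Behind these values stood 80, 5, 9 and 1 counts, so the level in FGO was under the limit of 3 counts, and neither GO1 and GO2 nor GO2 and FGO could be separated. The log2 change of Syce3 from NGO to FGO was -5.38, with an interval from -11.70 to -3.86 that lay past 4-fold throughout, and with 14 counts in all from GO1 to GO2 it missed the minimum of 20 counts for a call there. Levels of Syce1 were 6.11 times those of Syce3 in NGO, and in FGO the interval of the ratio ran from 7.12 to 1616.

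Hormad1 and Hormad2, close relatives, parted during growth. HORMAD1 supports break formation and homologue pairing, and HORMAD2 marks unsynapsed axes for the checkpoint that removes defective oocytes. Hormad1 (chr3:95559677-95587671, + strand) had an RPKM of 2.35 in NGO, 0.871 in GO1, 0.441 in GO2 and 0.358 in FGO, from 450, 191, 184 and 74 counts, and only the intervals of GO2 and FGO overlapped. Between NGO and FGO it fell by 2.65 on the log2 scale (-3.04 to -2.31), and its log2 change from GO1 to GO2 was -1.01 (-1.32 to -0.72). Hormad2 (chr11:4345814-4441105, - strand) had an RPKM of 1.86 in NGO, 1.12 in GO1, 1.05 in GO2 and 1.40 in FGO, from 387 to 694 counts. Only the ScriptSeq libraries overlapped, and both were lower than the dUTP libraries. The log2 change of Hormad2 was -0.35 from NGO to FGO (-0.53 to -0.17) and -0.12 from GO1 to GO2 (-0.30 to 0.06). The ratio of Hormad2 to Hormad1 was 0.788 in NGO (0.695 to 0.895), 1.28 in GO1 (interval 1.08 to 1.53), 2.39 in GO2 (interval 2.03 to 2.82) and 3.91 in FGO (interval 3.06 to 5.07), so the ratio was below 1 in NGO and above 1 in the other libraries. With 2 counts per fragment, the level intervals of the 2 genes overlapped in NGO and GO1.

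**Figure D2:**
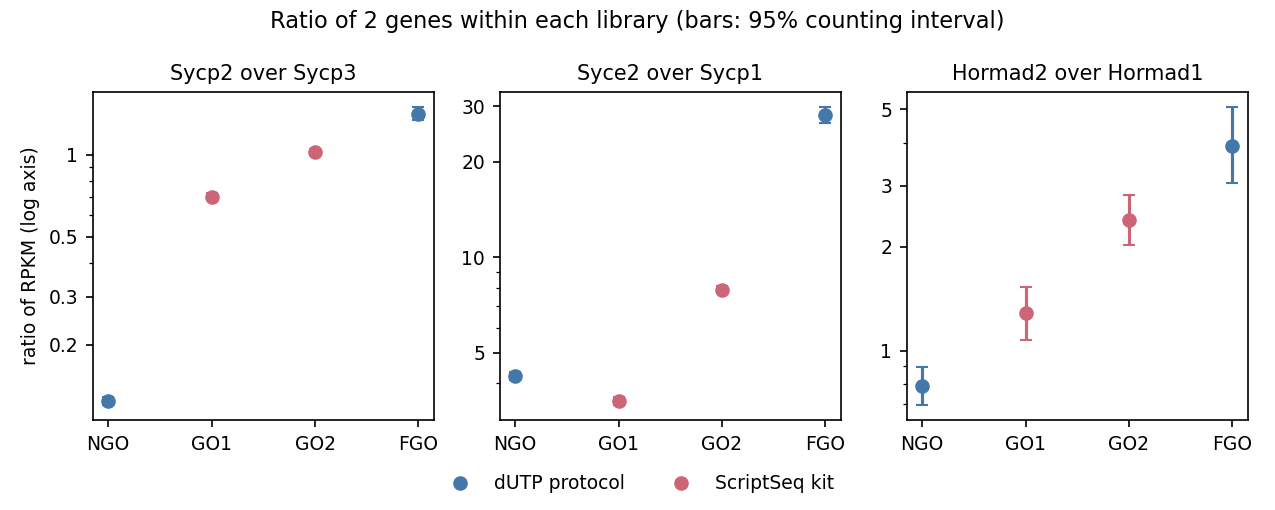
Ratio of the RPKM of 2 genes within each library (log axes that differ between panels, bars for 95 % counting intervals, colours for the library kit). Sycp2 over Sycp3 goes from 0.124 in NGO to 1.42 in FGO, Syce2 over Sycp1 from 4.22 to 28.1 and Hormad2 over Hormad1 from 0.788 to 3.91.

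A ratio within 1 library does not depend on how that library was scaled. Syce2 over Sycp1, the most abundant central element transcript over the transverse filament, was 4.22 in NGO, 3.52 in GO1, 7.90 in GO2 and 28.1 in FGO. Sycp2 over Sycp1 was 0.449 in NGO, 1.62 in GO1, 3.14 in GO2 and 4.81 in FGO. Within each kit, all 3 ratios in the plot of ratios by library were higher in the later stage, with no overlap of intervals.

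Across the 9 genes, 5 fell 4-fold or more from NGO to FGO (Sycp1, Sycp3, Syce1, Syce3 and Hormad1), beside 5.5 % of the 15242 genes that had 20 counts or more over both libraries. None rose 4-fold, beside 8.56 % of genes. The other 4 genes (Sycp2, Syce2, Tex12 and Hormad2) had log2 changes between -0.41 and 0.76, within or just past the middle 50 % of all genes, -0.66 to 0.66. The median log2 change was -2.65 for the 9 genes and -0.01 for all genes tested. Counting intervals lay below 0 for 7 of the 9 genes and above 0 for the other 2 (Sycp2 and Syce2).

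From GO1 to GO2 the changes were smaller for 8 of the 9 genes, Tex12 being the exception, and the middle 50 % of all genes was narrower. None of the 9 passed 4-fold in either direction, where 0.255 % of 15717 genes were lower and 1.51 % higher, and 8 of the 9 reached the count minimum. The median log2 change was -0.58 for the 9 genes and 0.02 for all. The lowest changes belonged to Sycp1, Syce1 and Hormad1, which also fell from NGO to FGO, and Sycp3 followed at -0.72. Counting intervals lay below 0 for 6 genes and above 0 for Syce2, and those of Syce3 and Hormad2 included 0.

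**Figure D3:**
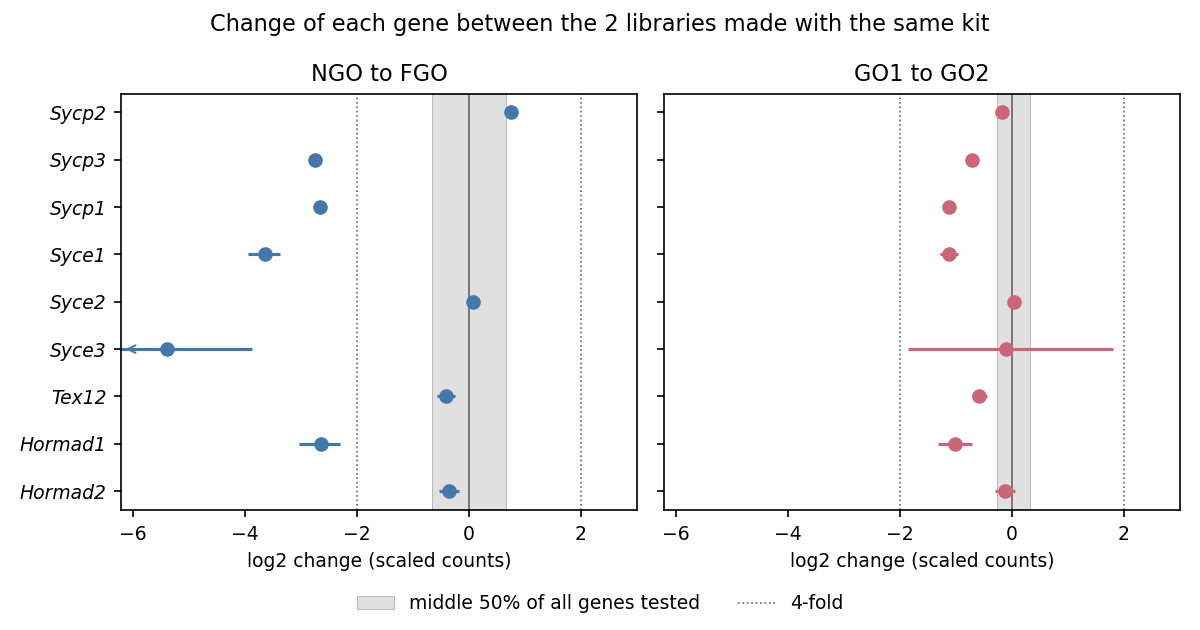
Log2 change of each gene from NGO to FGO (left) and from GO1 to GO2 (right), in counts scaled between libraries, with 95 % counting intervals, the middle 50 % of all genes tested in grey and 4-fold as dotted lines. In the left panel 5 genes lie past 4-fold lower and 4 lie between -0.41 and 0.76, and in the right panel no gene passes 4-fold (the arrow marks the interval of Syce3, which goes on to -11.70).

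The make-up of the set shifted with these changes. Syce2 held 39.7 % of the summed RPKM in NGO, 37.1 % in GO1, 47.8 % in GO2 and 68.6 % in FGO. Sycp3 held 34.1 % in NGO, 24.4 % in GO1, 18.6 % in GO2 and 8.29 % in FGO, and Sycp1 9.42 %, 10.6 %, 6.05 % and 2.44 %. Sycp2 went from 4.23 % in NGO to 11.8 % in FGO and held 17.1 % and 19.0 % in the ScriptSeq libraries. In the order of levels, Sycp2 and Syce1 could not be separated in NGO, and in GO2 neither Sycp2 and Sycp3 nor Sycp1 and Tex12 could, while in GO1 and FGO no neighbours in the order overlapped. With 2 counts per fragment, 7 of the 32 neighbouring levels overlapped in place of 3.

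**Figure D4:**
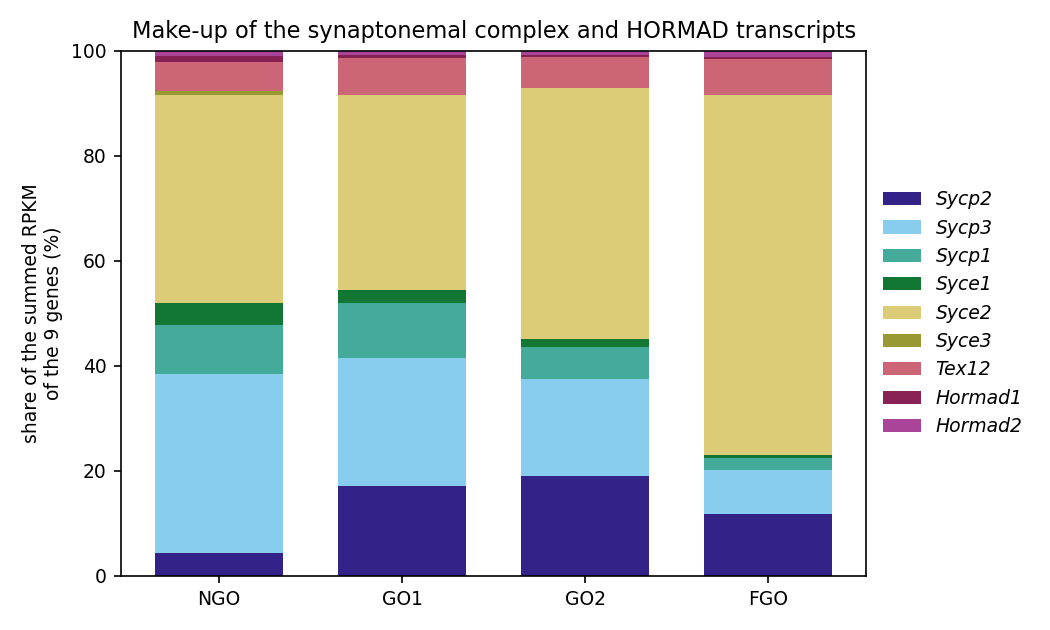
Share of the summed RPKM of the 9 genes (%) held by each gene in the NGO, GO1, GO2 and FGO libraries, as stacked bars. The share of Syce2 is 39.7 % in NGO and 68.6 % in FGO, and that of Sycp3 is 34.1 % and 8.29 %.

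Other genes of meiotic prophase were read beside them, as 46 genes in 7 lists. Of these, 44 had 1 row in the table, Sycp2l has 2 rows and was left out of the counts, Ankrd31 was not matched, and 39 reached the count minimum from NGO to FGO. Of the 39, 6 fell 4-fold, 1 rose 4-fold and 32 did neither, where 5.5 % of all genes tested were lower and 8.56 % higher, and the median log2 change was -0.60 beside -0.01 for all genes. From GO1 to GO2 none of the 39 passed 4-fold, where 0.255 % of all genes were lower and 1.51 % higher, and the median was -0.13 beside 0.02.

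Genes whose products bind the complex gave 2 falls of 4-fold among 4 tested, beside 5.5 % of all genes tested. Fkbp6, an immunophilin of synapsed chromosomes and of the piRNA pathway, had an RPKM of 46.9 in NGO, 7.32 in GO1, 5.85 in GO2 and 6.32 in FGO, a log2 change of -2.84 from NGO to FGO. Six6os1, a central element protein listed as 4930447C04Rik, had only 0.206 in NGO, 0.0835 in GO1, 0.05004 in GO2 and 0.0180 in FGO, with a log2 change of -3.37. The rows of Sycp2l, a relative of Sycp2 found in oocytes, had an RPKM of 21.6 and 14.8 in NGO, 24.3 and 17.9 in GO1, 23.2 and 19.8 in GO2 and 20.2 and 14.4 in FGO. In NGO and FGO both rows of Sycp2l were higher per kilobase than Sycp2 itself.

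Among the meiotic cohesins, which form the axis on which SYCP2 and SYCP3 assemble, Smc1b had an RPKM of 54.5 in NGO, 36.0 in GO1, 15.7 in GO2 and 6.02 in FGO. It fell by 3.12 on the log2 scale from NGO to FGO, and its log2 change from GO1 to GO2 was -1.23. Smc1b was the 1 gene of 3 cohesins tested that fell 4-fold from NGO to FGO, beside 5.5 % of all genes tested. Rec8 had 7 counts in NGO and at most 1 in any other library and was not tested.

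Of 5 tested genes for the formation of meiotic breaks, Prdm9, which marks break sites, fell from an RPKM of 1.40 in NGO to 0.186 in FGO, with 1.005 in GO1 and 0.541 in GO2 (log2 change -2.84). Mei4, of the break machinery, was the 1 gene that rose, from 0.223 in NGO to 0.930 in FGO, with 0.177 in GO1 and 0.334 in GO2. Its log2 change of 2.11 came just under 4-fold when libraries were scaled by their summed gene counts. Among all genes tested, 5.5 % fell and 8.56 % rose 4-fold.

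None of the 8 strand exchange genes or the 11 crossover genes tested passed 4-fold, beside 5.5 % lower and 8.56 % higher among all genes. The most abundant strand exchange gene in NGO was Tex15, with an RPKM of 32.0, 20.8, 15.8 and 11.1 in NGO, GO1, GO2 and FGO and a log2 change from NGO to FGO of -1.47, and the most abundant crossover gene was Msh4, with 5.63, 13.01, 13.4 and 10.4 and a log2 change of 0.94. Of 5 genes that attach telomeres to the nuclear envelope, only Terb2 passed 4-fold lower, on 55 counts in NGO and 1 in FGO, and Kash5, which links telomeres to dynein, had 15.3, 13.1, 17.9 and 19.6. Among 3 tested genes of meiotic entry, Meiosin (listed as Gm4969) fell from 1.51 in NGO to 0.0765 in FGO, a log2 change of -4.22, while Stra8 was listed at 0 in all 4 libraries.

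**Figure D5:**
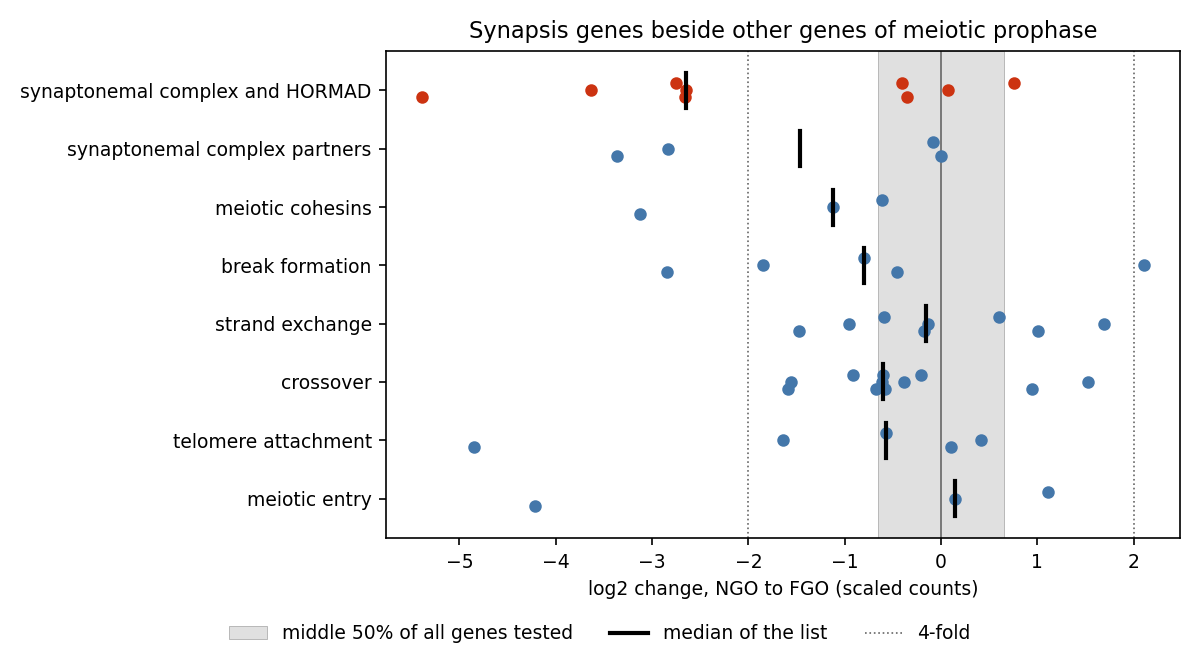
Log2 change from NGO to FGO of the 9 genes (red) and of the genes of 7 lists of meiotic prophase genes that reached 20 counts (blue), with the median of each list as a black bar, the middle 50 % of all genes tested in grey and 4-fold as dotted lines. The 9 genes have a median of -2.65, and the list medians run from -1.46 to 0.15.

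The genes nearest to the median profile of the 8 genes with at least 100 counts, out of 14250 compared over the 4 libraries in log2(RPKM + 0.01) centred on its mean, were Kdm5a, Trim66, Gm8603, Alg13 and Scamp1. That median profile stood at 0.725 in NGO and -0.703 in FGO. From NGO to FGO it fell less than the genes past 4-fold and more than the others. A gene near it therefore need not resemble any single gene of the set. Kdm5a, a histone demethylase gene, lay at a distance of 0.0358 and had an RPKM of 4.45 in NGO, 3.30 in GO1, 2.11 in GO2 and 1.67 in FGO. The other 4 lay at 0.0753 to 0.0965, where the median over all genes was 1.38. This likeness mixes stage and kit: with each pair of libraries centred on its own mean, 0 of these 5 genes were among the nearest 5.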

How the data were processed

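A single table held the values of all 4 libraries (NGO, GO1, GO2 and FGO), each the only library of its stage. The authors deposited them as RPKM on a linear scale, from reads trimmed with Trim Galore 0.2.8 and mapped to GRCm38 with TopHat2 2.0.9, per the submitters' processing notes. The program that counted, its strand setting and the exact gene models are not given in the sources used here. The table has 0 columns of other samples.

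Library totals were fitted on genes with 1 exon in GENCODE M21, for which at least 99.57 % of values above 0 came out within 0.03 of a whole count. The exon length of every other gene was the GENCODE exon union (9819 genes), a GENCODE transcript (1558 genes) or otherwise the smallest length with whole counts (9645 genes, among them Syce1, Syce3 and Tex12). Where the smallest length is wrong, counts are too small by 1 factor in all libraries and RPKM is unaffected. For Syce1 and Syce3 it was within 2 bases of the GENCODE exon union.

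Changes were log2 ratios of counts with a prior count of 1, after scaling by the trimmed mean of log ratios (30 % of ratios and 5 % of expression trimmed), for genes with 20 counts or more over both libraries, and were called at 4-fold. Scaling by the summed gene counts of each library instead shifts changes by about -0.11 from NGO to FGO and 0.07 from GO1 to GO2. These sums are not the library totals behind the RPKM. Level intervals are exact Poisson and ratio intervals exact conditional binomial (95 %), for counting error only, since no molecular identifiers are described. With 1 library per stage no SD or p value exists. The calculations were tested on simulated data. Python 3.11.15, numpy 2.4.6, pandas 2.3.3, scipy 1.17.1 and matplotlib 3.10.9 were used, and promoters came from RefSeq (GRCm38.p6), with all 9 genes matched.

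The genes, lists, markers and motifs were chosen with earlier results of these data known. Named besides the 9 genes were, from each list, at most 4 genes past 4-fold from NGO to FGO with 100 counts or more in 1 library, or else its most abundant gene in NGO, the 3 highest markers of each cell type, the 5 nearest profiles and genes overlapping one of the 9. Sycp2l, Rec8, Terb2, Stra8, Foxl2, Amh, Amhr2, Inha, Hsd17b1, Fshr, Hba-a2, Ptprc and Cdh5 were named after their values were seen.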

Additional observations from a re-analysis of the deposited data

How the results depend on the processing

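The number of the 9 genes that fell 4-fold from NGO to FGO was 5 under the other scalings, the other prior counts, no count minimum and pseudocounts of 0.01 and 0.1 on RPKM. It was 4 with a minimum of 100 counts, which Syce3 does not reach. With log2(RPKM + 1), which compresses low levels, it was 3 and the median log2 change was -1.18 in place of -2.65. It was 2 (Syce1 and Syce3) with a threshold of 8-fold. From GO1 to GO2, 3 genes (Sycp1, Syce1 and Hormad1) were lower at 2-fold, where none was at 4-fold, and the median with log2(RPKM + 1) was -0.38. Of the list genes, 12 were lower and 5 higher from NGO to FGO at 2-fold, and 3 were lower from GO1 to GO2. With scaling by summed gene counts, 0 were higher 4-fold from NGO to FGO, since Mei4 missed the threshold. Among the 9 genes, only Syce2 changed sign from NGO to FGO, to -0.03 with scaling by summed gene counts. The change of Syce3 ranged from -5.80 to -1.18, on 1 count in FGO. No leave-one-out analysis or test was possible with 1 library per stage. Of the 9 genes only Syce3 lay below 10 counts in any library (GO1, GO2 and FGO). In an alternative chosen after seeing the data, in which 2 counts came from each fragment, 5 genes still had an interval past 4-fold lower from NGO to FGO, and 8 of 27 neighbouring libraries overlapped in place of 7. With 4 counts per fragment these were 4 genes, without Hormad1 (upper bound -1.95), and 11, the change of Hormad2 from NGO to FGO and of Syce2 from GO1 to GO2 included 0, and the ratio of Hormad2 to Hormad1 overlapped between GO1 and GO2.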
